A study of Homo sapiens with 6 samples.

Results

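GSX2 regions that lie at the ends of noncoding genes, and at no end of a protein-coding gene, were chosen by their peaks in chromatin immunoprecipitation with sequencing (ChIP-seq). Peak intervals on chromosomes 1 to 22 and X that shared 1 bp or more, within or between the 3 replicates' lists, were joined into regions. A region was kept where it held peaks of at least 2 replicates, its median summit lay within 1 kb of either end of a gene that RefSeq does not call protein-coding, and no end of a protein-coding gene lay within 1 kb. The rule selected 356 regions, which are 5.01% of the 7105 regions found in at least 2 replicates, out of 15743 merged regions in all. The measured values that chose them were the presence and position of the peaks, so the number of members and the share of genes with a member are descriptions without a test.

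All samples come from H9, an established human embryonic stem cell line, carrying a TRE3G 2xFLAG-GSX2 WT transgene, in which a doxycycline-responsive promoter drives FLAG-tagged wild-type GSX2. The cells were taken through an LGE-like differentiation (LGE is the lateral ganglionic eminence of the ventral forebrain) in Essential 6 medium with LDN193189, SB431542 and XAV939, next with LDN193189 and SB431542, and last with IWP2 and Activin A. All 3 precipitated samples received 100 ng/mL doxycycline for 12 hours from day 10, were labelled day 10.5 and were precipitated with the M2 antibody to FLAG. There is 1 group of 3 replicates, and 3 input samples have no values here. No sample without the transgene or without doxycycline was analysed, so no value shows what the antibody gives in the absence of the tagged protein, and the peaks report induced, tagged GSX2. The labels number the replicates without saying whether they are separate cultures, so any spread or p covers only the spread between these samples. The lists give no read counts, so the depth is unknown, and a missing peak may mean a weak one.

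GSX2 is a homeodomain transcription factor of ventral forebrain progenitors, known for specifying the LGE and for repressing dorsal telencephalic programmes. Homeodomains of this kind read short AT-rich DNA built on the core TAAT, and GSX2 can bind alone or as a pair at cores of fixed spacing. Noncoding genes comprise long noncoding RNAs (lncRNAs), which are transcribed by RNA polymerase II and often named for a neighbouring gene, microRNAs (miRNAs), which silence messenger RNAs through a short seed, transfer RNAs (tRNAs) and other small RNAs, many made by RNA polymerase III, and pseudogenes. A region at the end of such a gene need not act on that gene, and nothing here measured the RNA.

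The start sites of 31 lncRNA genes had a member's summit inside the 300-base window that RefSeq sequence (GRCh38.p14, the hg38 primary assembly) gives for them, from 250 bases before the start to 50 after it. The 7 windows below are shown 5′ to 3′ on the gene's strand. They were chosen after their values were seen, because they show the TAATTA motif, a spaced pair of cores, or neither, at or near the summit. Capitals mark TAATTA or, in LINC00398 and LOC105376190, a pair of TAAT cores on 1 strand with 7 bases between them (written ATTA where the cores lie on the opposite strand).
LINC00398 (chr13:30802956-30803255, + strand, summit at base 42): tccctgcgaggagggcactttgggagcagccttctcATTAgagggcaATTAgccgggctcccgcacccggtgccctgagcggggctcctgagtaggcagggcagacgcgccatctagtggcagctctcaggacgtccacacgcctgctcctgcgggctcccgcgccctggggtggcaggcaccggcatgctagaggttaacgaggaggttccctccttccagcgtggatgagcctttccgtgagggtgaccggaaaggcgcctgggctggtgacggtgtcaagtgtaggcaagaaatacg
LOC105376190 (chr9:102514558-102514857, - strand, summit at base 208): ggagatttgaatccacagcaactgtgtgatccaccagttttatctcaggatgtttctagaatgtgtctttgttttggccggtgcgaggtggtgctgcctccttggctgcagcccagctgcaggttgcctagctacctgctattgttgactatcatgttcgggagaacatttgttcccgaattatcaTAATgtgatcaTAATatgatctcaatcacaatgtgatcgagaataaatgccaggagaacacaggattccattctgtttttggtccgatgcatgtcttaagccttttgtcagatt
CFAP20DC-AS1 (chr3:58824221-58824520, + strand, summit at base 226): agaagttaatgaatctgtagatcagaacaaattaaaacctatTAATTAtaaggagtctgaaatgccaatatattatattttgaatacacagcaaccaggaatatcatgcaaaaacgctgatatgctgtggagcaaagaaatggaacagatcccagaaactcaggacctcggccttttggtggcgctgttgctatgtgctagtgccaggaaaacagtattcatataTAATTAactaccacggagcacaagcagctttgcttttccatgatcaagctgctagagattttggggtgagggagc
LOC124904653 (chr19:18292794-18293093, - strand, summit at base 136): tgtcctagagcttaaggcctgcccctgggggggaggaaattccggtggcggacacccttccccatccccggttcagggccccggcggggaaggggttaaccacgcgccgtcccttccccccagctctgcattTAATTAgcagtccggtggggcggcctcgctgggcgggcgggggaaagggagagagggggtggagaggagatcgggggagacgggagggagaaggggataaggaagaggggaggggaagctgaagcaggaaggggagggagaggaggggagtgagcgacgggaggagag
LOC105378250 (chr12:53757022-53757321, + strand, summit at base 165): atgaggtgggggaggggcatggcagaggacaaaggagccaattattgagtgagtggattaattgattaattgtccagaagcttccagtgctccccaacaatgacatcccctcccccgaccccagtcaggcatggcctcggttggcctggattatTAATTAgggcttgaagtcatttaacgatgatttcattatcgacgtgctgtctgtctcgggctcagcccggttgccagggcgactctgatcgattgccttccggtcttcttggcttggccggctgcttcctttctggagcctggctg
LOC112268039 (chr9:96129613-96129912, + strand, summit at base 247): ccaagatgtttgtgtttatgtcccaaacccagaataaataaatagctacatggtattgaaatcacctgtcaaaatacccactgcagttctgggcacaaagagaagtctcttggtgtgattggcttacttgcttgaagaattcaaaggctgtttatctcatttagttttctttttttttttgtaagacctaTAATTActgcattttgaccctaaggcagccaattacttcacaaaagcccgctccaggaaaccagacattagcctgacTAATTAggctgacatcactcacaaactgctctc
JPX (chrX:73944074-73944373, + strand, summit at base 189): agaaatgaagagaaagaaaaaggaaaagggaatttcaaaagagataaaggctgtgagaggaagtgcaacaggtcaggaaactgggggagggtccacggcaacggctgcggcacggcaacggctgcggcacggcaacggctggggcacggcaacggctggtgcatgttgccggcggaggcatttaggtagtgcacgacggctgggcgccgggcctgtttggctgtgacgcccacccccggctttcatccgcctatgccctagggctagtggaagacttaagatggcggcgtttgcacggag

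TAATTA reads the same on both strands and holds TAAT once on each. It was found in 12 of the 31 windows that contained a summit, or 38.7%. Among all 34961 windows of RefSeq starts it was found in 4.85%, among the 12830 noncoding ones in 7.37% and among the 22131 protein-coding ones in 3.40%. Regions at protein-coding ends gave a lower share, with 24 of 141 summit-holding windows (17.0%). The 219 other start windows of genes with a member, which did not hold a summit, held TAATTA in 23 cases (10.5%). The motif was thus more frequent where a summit lay in the window than in these other start windows. They come from all genes with a member, so this is no comparison within the 31 genes, and the difference was not tested.

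Base composition differed between these sets, with a median GC content of 48.0% in the 31 windows and 50% in all noncoding ones. Among windows under 50% GC, 7 of 16 with a summit held TAATTA (43.8%) against 12.9% of noncoding windows. Among windows of 50% GC or more, 5 of 15 held it (33.3%) against 1.94%. The summit-holding windows at protein-coding ends had a higher median GC content, 57.7%, and held TAATTA in 6 of 27 (22.2%) under 50% GC and 18 of 114 (15.8%) at 50% or more. The median distance from the summit to the nearest TAATTA was 17 bp in the 12 windows, 9 of them had it within 50 bp, and the farthest was 98 bp away. In LOC124904653 the summit fell on the motif itself, and in CFAP20DC-AS1, which holds 2 copies, the nearest lay 2 bp away. The spaced pair of cores was found in 3 of the 31 windows (9.68%), against 0.867% of all windows, 1.43% of noncoding ones and 7 of 141 (4.96%) of the summit-holding windows at protein-coding ends. A match is a description of the letters in the window and does not show a binding site or a cause.

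**Figure D1:**
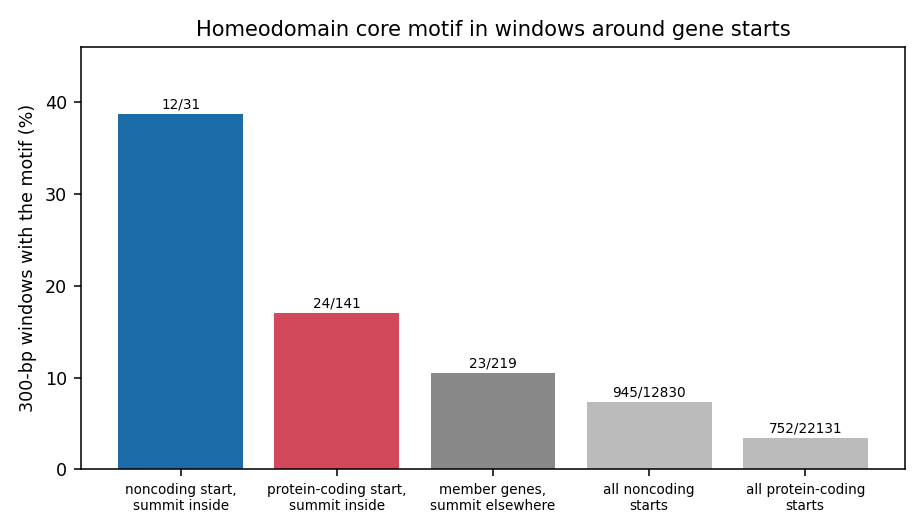
Share of 300-bp windows around gene starts that hold TAATTA, in percent, with the number of windows above each bar. The share was 38.7% where a summit of a region at a noncoding end lay in the window, 17.0% where a summit of a region at a protein-coding end did, and 7.37% over all noncoding starts.

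LINC00398, a long intergenic noncoding RNA gene on chromosome 13, held the spaced pair at a strong region. The region at chr13:30802808-30803272 had a fold enrichment of 22.9, 27.3 and 16.6 in replicates 1, 2 and 3 (22.2 ± 5.40, SD, n = 3), and its summit lay 2 bp from the centre of the pair. Fold enrichment is the linear ratio of the signal at a peak to the caller's background, as the authors deposited it. The window of LINC00398 has a GC content of 64.7%, and the pair holds the only 2 TAAT cores in it. At LOC105376190 the pair lay 14 bp from the summit, with a fold enrichment of 6.81 in replicate 1 and 8.01 in replicate 2 and no peak in replicate 3. The third such window, at LOC124902457, had its pair 120 bp from the summit.

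CFAP20DC-AS1 had a fold enrichment of 12.7 in replicate 1 and 9.12 in replicate 3, and no peak in replicate 2. LOC124904653 had 11.5 and 13.6 in the same replicates. The region at LOC105378250, whose nearest noncoding gene end belongs to CISTR, had 11.3, 8.52 and 12.6. LOC112268039 was among the most even members, with 7.63, 7.30 and 7.59. Over the 31 windows the median of the mean fold enrichment was 7.66 with TAATTA and 7.22 without it, and 5 of 12 and 7 of 19 regions were found in all 3 replicates.

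JPX, an X-linked lncRNA gene known as an activator of XIST, shows the contrast. Its region at chrX:73944131-73944402 had 5.07, 8.49 and 8.10 (7.22 ± 1.87, SD, n = 3), with the summit 62 bp before the start, and the window holds no TAAT core on either strand. At least 1 core was found in 27 of the 31 windows (87.1%), in 87.9% of the summit-holding windows at protein-coding ends and in 63.2% of noncoding windows. Under 50% GC the shares were 93.8% of the 16 such windows with a summit and 91.2% of noncoding windows, so there a single core hardly set them apart. At 50% GC or more, where the JPX window lies with 59.7%, they were 80% of 15 windows with a summit and 35.8% of noncoding windows. These differences were not tested.

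Members differed widely in strength. Their mean fold enrichment ran from 2.79 to 29.1, with a median of 7.62 and quartiles of 6.46 and 9.52. It was over 10-fold in 70 members, over 20-fold in 9 and under 5-fold in 11. Peaks of all 3 replicates were found in 167 members (46.9%, 95% Wilson interval 41.8 to 52.1%, counting error only) and of exactly 2 in 189. Replicate 1 held a peak in 309 members, replicate 3 in 300 and replicate 2, whose list was the shortest, in 270. With both remaining replicates required, 215 members were found without replicate 1, 254 without replicate 2 and 225 without replicate 3. Among the members of all 3 replicates the median coefficient of variation of the fold enrichment was 18.2%.

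The strongest member lay beside TRQ-TTG3-3, a glutamine tRNA gene in the histone and tRNA gene cluster of chromosome 6. The region at chr6:27795755-27796246 had 26.7, 25.9 and 34.8 (29.1 ± 4.93, SD, n = 3), with the summit 87 bp from the gene and 11.5 kb from the nearest protein-coding end, that of H2BC13. All 3 replicates were over 25-fold. The next was at LOC124904769, a small nuclear RNA gene, at chr1:26602420-26602875. Its values of 25.0, 24.1 and 23.9 (24.3 ± 0.596, SD, n = 3) were nearly equal in the 3 replicates, and the summit lay 167 bp from the gene.

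LOC102724768, a lncRNA gene on chromosome 10, held the strongest member at a lncRNA gene, at chr10:59065016-59065495. The values were 25.6, 22.7 and 22.7 (23.7 ± 1.64, SD, n = 3), and the summit lay 852 bp inside the gene, 108 kb from the nearest protein-coding end. LINC00605 at chr14:103186872-103187566 had 20.6, 26.5 and 16.6 (21.2 ± 4.98, SD, n = 3), 59 bp from the gene's end. LOC105378660 at chr1:38727328-38727860 had 28.4, 18.6 and 16.1 (21.0 ± 6.51, SD, n = 3), 937 bp inside its start. Replicate 1 was far above the other two at LOC105378660, whereas replicate 2 was highest and replicate 3 lowest at both LINC00398 and LINC00605.

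LINC00877 at chr3:72099994-72100397 was more even, at 19.9, 19.1 and 22.4 (20.5 ± 1.72, SD, n = 3), with the summit 314 bp inside the start. TRV-AAC1-1, a valine tRNA gene, had a region at chr3:169771751-169772386 with 17.8, 20.6 and 23.1 (20.5 ± 2.68, SD, n = 3). Its summit lay 59 bp from the tRNA gene and 1225 bp from an end of MYNN, so that only the 1 kb limit keeps it apart from that protein-coding gene. LOC124903956 at chr17:27236718-27237145 had 16.6, 23.2 and 20.6 (20.2 ± 3.32, SD, n = 3), 925 bp beyond the far end of the gene.

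The last 3 of the 12 strongest members of all 3 replicates lay beyond or beside their genes. RPS27P30, a ribosomal protein pseudogene inside MAP4, had 23.2, 17.4 and 18.7 at chr3:48039833-48040325, with the summit 659 bp away. LOC105379035 had 19.5, 15.9 and 22.5 at chr5:74054264-74054971, 288 bp past its far end. LOC550113 had 18.7, 16.0 and 17.5 at chr4:68073406-68073887, 404 bp past its far end and inside TMPRSS11F. Of these 12 members, 8 have a lncRNA gene nearest, 2 a tRNA gene, 1 a small nuclear RNA gene and 1 a pseudogene.

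**Figure D2:**
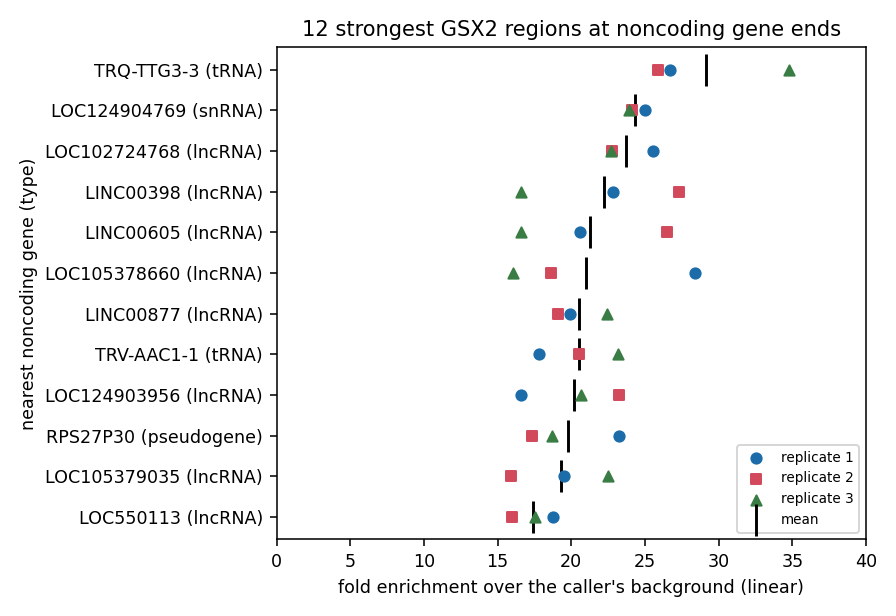
Fold enrichment in each replicate (symbols, linear axis) and its mean (bar) for the 12 strongest regions of all 3 replicates, named by the nearest noncoding gene and its type. The tRNA gene TRQ-TTG3-3 leads with 26.7, 25.9 and 34.8, and LOC124904769 has the tightest values, from 23.9 to 25.0.

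At the weak end, EEF1A1P5, a pseudogene of a translation elongation factor, had 2.81 in replicate 2 and 2.77 in replicate 3. MIR10396A, a miRNA gene on the short arm of chromosome 21, had 3.46 and 3.99 in the same replicates. Although its fold enrichment was low, its significance, given as −log10 of the q-value, was 8.41 and 11.6. Both had no peak in replicate 1.

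Of the 39124 noncoding genes on these chromosomes, 394 had a member within 1 kb of an end (1.01%). Among 19970 protein-coding genes 672 had a region of at least 2 replicates no farther than 1 kb from an end (3.37%). The 2 shares are not alike, since members exclude regions near protein-coding ends. With every region of at least 2 replicates counted, 515 noncoding genes had one (1.32%). A gene longer than 2 kb offers about 4 kb around its ends and a short RNA gene little over 2 kb, so equal shares would not mean equal density. By type, the share was 1.50% of 18177 lncRNA genes, 0.348% of 16664 pseudogenes, 8.80% of 443 tRNA genes, 0.680% of 1911 miRNA genes and 3.90% of 154 small nuclear RNA genes. The tRNA genes had the highest share of these types, although each offers a short window. A single region can count for several of them, as at 13 of the 24 regions with a tRNA gene nearest. Since regions were chosen by their gene ends, these shares describe the members and were not tested. A region needs 2 replicates, so leaving out a replicate lowers the counts. The 394 genes became 238 without replicate 1 and 251 without replicate 3, the 272 lncRNA genes 165 and 178, the 39 tRNA genes 22 and 24, and the 58 pseudogenes 33, 37 and 34 without replicates 1, 2 and 3. The 6 small nuclear RNA genes became 2 without replicate 3.

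Counted by the nearest noncoding gene, 262 members belonged to lncRNA genes, 51 to pseudogenes, 24 to tRNA genes, 8 to miRNA genes, 6 to small nuclear RNA genes and 5 to other types. The median of the members' mean fold enrichment was 7.69 at lncRNA genes, 7.42 at pseudogenes, 7.01 at tRNA genes, 9.35 at miRNA genes and 5.99 at small nuclear RNA genes. Peaks of all 3 replicates were found in 126 lncRNA members (48.1%), 21 pseudogene members (41.2%) and 12 tRNA members (50%), and their Wilson intervals overlapped.

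**Figure D3:**
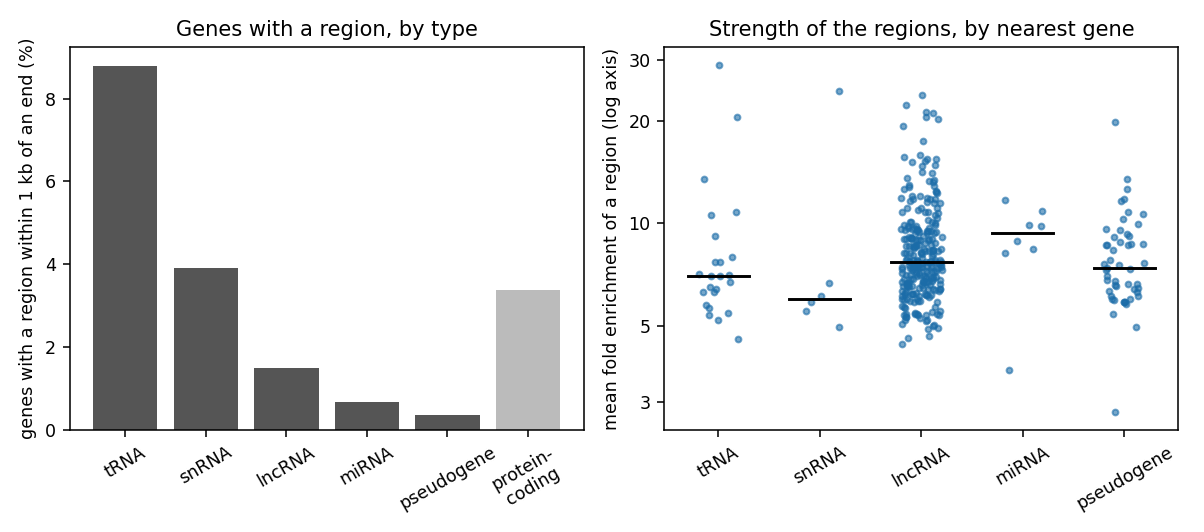
Left, percent of genes of each type that have a region at 1 kb or less from an end, with protein-coding genes in light grey. Right, mean fold enrichment of each member (points, log axis) by the type of its nearest gene, with the median as a bar. tRNA genes have the highest share at 8.80%, while the medians lie between 5.99 and 9.35.

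The tRNA members sat close to their genes. The median distance from the summit to the nearest gene end was 60 bp, and 18 of 24 summits lay within 100 bp. At lncRNA genes the median was 432 bp, with 40 of 262 within 100 bp (15.3%). The gene itself is short, with a median of 73 bp over tRNA genes, and 5 summits lay inside it. At 13 of the 24 regions several tRNA genes had an end within 1 kb, so 39 tRNA genes shared these regions and those at other genes. Counting regions that are also near protein-coding ends, 46 of 443 tRNA genes (10.4%) had one.

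Of the tRNA regions 10 of 24 (41.7%) lay on chromosome 6 between 26.3 and 27.8 Mb, and chromosome 6 holds 35% of the tRNA genes. After TRQ-TTG3-3, the strongest of them was at TRR-ACG1-1, an arginine tRNA gene, with 11.4, 13.3 and 15.9. TRT-AGT2-1, a threonine tRNA gene, followed with 12.3, 9.87 and 9.44. Outside chromosome 6, TRD-GTC1-1, an aspartate tRNA gene on chromosome 12, had 12.7, 7.30 and 12.3. Of the 24 regions 5 were over 10-fold and 19 under it. The weakest was TRY-GTA3-1, a tyrosine tRNA gene, at 4.77 in replicate 1 and 4.39 in replicate 3.

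By amino acid, the 24 nearest tRNA genes covered 12 isotypes. Valine (28 genes) led with 4 regions, and aspartate (13 genes) and arginine (26 genes) had 3 each. Counted by genes with a region, leucine had the most, with 6 of 32, against 5 of 28 for valine and 4 of 13 for aspartate. Over all tRNA genes it was 39 of 443, and differences between isotypes were not tested. Among the amino acids with the most tRNA genes, no region had a nearest gene for alanine (33 genes), glycine (30), cysteine (29), isoleucine (22) or asparagine (22), although 1 glycine gene lay within 1 kb of a region of another gene. Of the 12 tRNA regions with peaks of exactly 2 replicates, 8 lacked the peak of replicate 2. Over all 189 members with peaks of exactly 2 replicates, 86 lacked it, and the difference was not tested. Copies of a tRNA gene can be nearly identical, and how reads that match several copies were placed is not given in the sources used here. No control signal at these genes was analysed. With the tRNA members left out, 332 members remained, of which 46.7% were found in all 3 replicates.

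Small nuclear RNA genes, many of whose products act in splicing, had 6 members, and apart from LOC124904769 all had a mean below the members' median. RNU6-8, a U6 gene, had 4.77, 7.32 and 7.92, with the summit 548 bp away. RNU5E-1 had 6.30 and 5.93 in replicates 2 and 3, and RNU5B-1 had 4.96 and 6.07 in replicates 1 and 3. RN7SL2, a gene for the RNA of the signal recognition particle, had 5.84 and 7.48 in replicates 1 and 3. The list of RNA genes made by polymerase III or acting in RNA processing had 2 of 32 matched genes with a member (6.25%). These were RN7SL2 and RNU6-8. The share was 1.01% of all noncoding genes, 3.90% of small nuclear RNA genes and 8.80% of tRNA genes. With a 500 bp window the count was 1, and with 2 kb it was 4. The count was 1 without replicate 1, 1 without replicate 3 and 1 with peaks of all 3 replicates required. With −log10 q of at least 10 it was 0.

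Among the remaining types, 2 members lay at variable segments of immune receptor genes, which are rearranged in lymphocytes. IGLV7-46 had 7.09, 8.90 and 7.28, and TRAV36DV7 had 8.66 and 6.93 in replicates 1 and 2. LOC124906163, a small nucleolar RNA gene inside PTPN4, had 9.79, 7.34 and 6.45. TALAM1, the antisense partner of the abundant nuclear lncRNA MALAT1, had 7.91, 7.56 and 7.09 at chr11:65499083-65499659, with the summit 232 bp inside the gene. The mean fold enrichment of these 4 lay between the members' quartiles.

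The pseudogene members numbered 51. ZNF767P, a transcribed pseudogene of a zinc finger gene, had 15.1, 15.0 and 10.2 with the summit 857 bp outside it. LOC100422730 had 11.1, 14.9 and 11.8 with the summit 392 bp away. TMEM191A, which is also transcribed, had 10.4, 8.72 and 10.7. Of the pseudogene members 26 lay inside a protein-coding gene (51.0%), against 83 of 262 at lncRNA genes (31.7%).

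The miRNA members include a locus known for pluripotent cells. A single region at chr4:112647379-112648033 had an end of 6 noncoding genes within 1 kb, namely MIR367, MIR302D, MIR302A, MIR302C, MIR302B and the host gene MIR302CHG. This miRNA cluster is transcribed as a joint RNA, is abundant in embryonic stem cells and is known to support pluripotency. The mature sequences are shown because they give the seeds the cluster shares. Capitals mark the seed, bases 2 to 8, and the sequences are from RefSeq.
hsa-miR-302a-3p: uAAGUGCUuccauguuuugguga
hsa-miR-302b-3p: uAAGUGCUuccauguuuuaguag
hsa-miR-302c-3p: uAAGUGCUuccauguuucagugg
hsa-miR-302d-3p: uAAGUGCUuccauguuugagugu
hsa-miR-367-3p: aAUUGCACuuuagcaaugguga
hsa-miR-7-5p: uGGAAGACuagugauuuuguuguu

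The 4 miR-302 sequences share the seed AAGUGCU, while miR-367 and miR-7 each have their own. The fold enrichment at the cluster was 9.0, 12.6 and 10.9 (10.8 ± 1.79, SD, n = 3), above the median of the members in every replicate. The summit lay inside MIR302CHG, 892 bp from its end, 262 bp from MIR367 and 873 bp from MIR302B, all of which lie inside LARP7, whose nearest end was 9974 bp away. This single region counts for 5 miRNA genes.

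MIR7-3, which gives miR-7, a miRNA of neural and endocrine cells, lay at the limit, 1000 bp from its summit. The region at chr19:4769551-4769859 had 7.81, 12.6 and 8.99 and lay 565 bp inside the start of its host gene MIR7-3HG. In all, 13 miRNA genes had a member, at 9 regions. MIR4705, inside FGF14, had the highest mean, with 11.2 and 12.2 in replicates 1 and 2, and its summit lay inside the gene. MIR193B had 8.80, 8.72 and 9.01, and its coefficient of variation of 1.71% was the lowest of the members of all 3 replicates. MIR6132 varied more, with 4.87, 10.6 and 9.12.

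A list of 37 miRNA genes, most of them neural, had 4 with a member (10.8%), beside 0.680% of all miRNA genes. Of these 4, MIR302A, MIR302B and MIR367 are the pluripotency cluster and share 1 region, and MIR7-3 is known from neural cells. With a 500 bp window the count was 1. Among 31 miRNA host genes 3 had a member (9.68%), beside 1.50% of all lncRNA genes and 5.75% of the 87 lncRNA genes named as hosts. This count was 1 with a 500 bp window and 5 with a 2 kb window. Besides MIR302CHG and MIR7-3HG the third was MIR17HG, host of the growth-promoting miR-17/92 cluster, with 4.68 and 6.23 in replicates 2 and 3 and the summit 314 bp before the start. The genes of these lists were chosen with earlier results of these data known.

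Of 45 matched lncRNAs of forebrain and neural cells, 5 had a member (11.1%), beside 1.50% of all lncRNA genes. SOX2-OT, which overlaps the neural stem cell gene SOX2, had the strongest, at chr3:181741681-181742097, with 13.8, 10.9 and 14.9 (13.2 ± 2.07, SD, n = 3). The summit lay 316 bp inside the far end of SOX2-OT and 27.5 kb from SOX2. PAX6-AS1, named for the dorsal and eye regulator PAX6, had 9.91, 11.2 and 11.1 (10.7 ± 0.711, SD, n = 3) at chr11:31815474-31815871. Its summit lay 951 bp before the start of PAX6-AS1, inside PAX6 and 2346 bp from that gene's end. At both loci every replicate was above the members' median.

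The other 3 were found in 2 replicates each, and their summits lay inside the protein-coding gene of the name, NR2F1, FEZF1 or NFIA. NR2F1-AS1, beside the caudal forebrain regulator NR2F1, had 8.73 in replicate 2 and 8.49 in replicate 3. FEZF1-AS1, beside the forebrain zinc finger gene FEZF1, had 6.92 in replicate 1 and 5.07 in replicate 3. NFIA-AS1, named for the glial regulator NFIA, had 4.12 and 4.72 in replicates 1 and 2 and was among the weakest members. With any 1 replicate left out, the list had 3 genes with a member. With a 500 bp window the list had 2. Of 37 matched widely expressed lncRNAs only JPX had a member (2.70%), and 4 had one with a 2 kb window.

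Strand was known for 197 of the 262 lncRNA members, and it places the summits along the gene. In 125 of them (63.5%) only the start lay within 1 kb, in 66 (33.5%) only the far end, and in 6 both. Each replicate gave a like share of start-side regions among those at 1 end, at 66.3%, 66.9% and 66.9%. Of the 125 start-side summits 72 lay before the start and 53 inside the gene. The median fold enrichment at starts and far ends was 8.03 and 8.20 in replicate 1, 8.22 and 7.91 in replicate 2 and 7.99 and 7.94 in replicate 3, so neither side was higher throughout. Of the start-side regions 66 were found in all 3 replicates, and of the far-end regions 26. Strand came from the sequence tables, so the split describes only genes listed there.

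**Figure D4:**
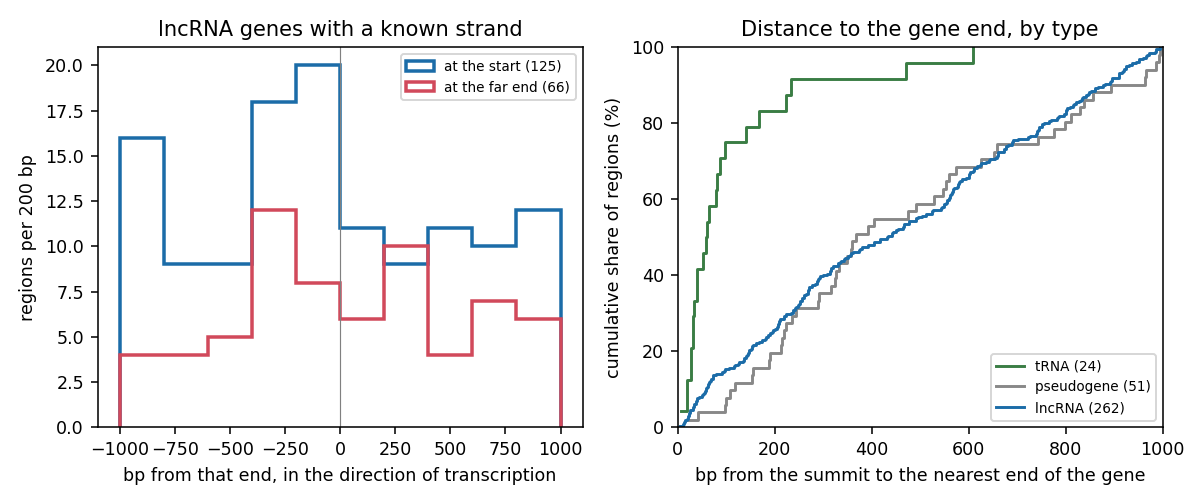
Left, number of regions per 200 bp around the start (125 regions) and the far end (66 regions) of lncRNA genes of known strand, with negative distances before that end. Right, cumulative percent of regions by the distance from the summit to the nearest gene end, where 18 of 24 tRNA regions lie within 100 bp and 40 of 262 lncRNA regions do.

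LncRNA names show what the genes lie beside. Over all lncRNA genes the share with a member was 1.50%. The largest class, genes with LOC names, had a member in 166 of 12316 cases (1.35%). Antisense genes (names in AS) had a member in 41 of 2045 cases (2.00%), intergenic genes (LINC) in 37 of 2306 (1.60%), divergent transcripts (DT) in 8 of 591 (1.35%) and miRNA or small RNA host genes (HG) in 5 of 87 (5.75%). Of the members, 50 lay at genes named for a protein-coding gene, and 34 of these summits lay inside that gene. The strongest were at CLYBL-AS3, with 15.9, 12.9 and 11.8, PTPRS-AS1, with 11.1, 13.1 and 16.0, and SOX2-OT. The median distance to an end of the gene in the name was 14.9 kb.

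The rule looks at the ends of protein-coding genes and not at their inner start sites. This was checked against a RefSeq list of gene starts that is incomplete. It holds no protein-coding start on chromosome 8, where 11 members lie. A start missing from the list could not be found, so the counts below are minimums. In 15 members the summit lay within 1 kb of an annotated start of a protein-coding gene that is not the gene's end. They are 4.21% of all members, checked or not, and 7 of them were found in all 3 replicates. At LOC124901045 the summit was 9 bp from a start of MCC, with 10.1, 6.78 and 11.3. CNN3-DT had 10.7, 12.7 and 13.9 with the summit 19 bp from a start of CNN3. NFIB-AS1 had 6.22, 7.45 and 7.15, 133 bp from a start of NFIB, a regulator of glial and neuronal maturation. NR2F1-AS1 lay 545 bp from a start of NR2F1. For these 15 the description as noncoding ends only goes against the annotation of alternative starts. Without them 341 members remained, which include those on chromosome 8 that were not checked.

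In position, 118 members lay inside a protein-coding gene and 238 between such genes. The median distance to the nearest protein-coding end was 31.5 kb, with 62 members within 5 kb and 90 more than 100 kb away. Nearest to the limit was the region of LOC112268153, with its summit 1004 bp from an end of RHCG and 8.51 and 4.72 in replicates 1 and 2.

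At the limit for noncoding ends, the members just inside were at RRN3P3, 995 bp away with a mean of 6.13-fold, SLC25A25-AS1, 994 bp and 9.47-fold, and RNA5SP60, 993 bp and 6.99-fold. The regions just outside were at LINC01738, 1003 bp and 9.67-fold, LINC02534, 1003 bp and 6.05-fold, and MIR9-2, 1005 bp and 7.41-fold. MIR9-2 encodes miR-9, a miRNA of neural progenitors, and its region was found in all 3 replicates.

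Strength was compared with the other 2 classes of regions found in at least 2 replicates, 598 at protein-coding ends and 6151 away from any gene end. The fold enrichment and its significance were not part of the rule that assigns a region to a class. The members' median fold enrichment was 7.91, 7.93 and 7.89 in replicates 1, 2 and 3. It was 7.61, 7.70 and 7.76 at protein-coding ends and 8.31, 8.48 and 8.38 away from ends. The members were thus between the other classes in each replicate.

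The mean difference from regions at protein-coding ends was 0.217 ± 0.0847 (SD, n = 3), higher in 3 of 3 replicates, and that from regions away from ends was −0.480 ± 0.0735 (SD, n = 3), lower in 3 of 3. An exact two-sided sign-flip permutation test over the replicates gave p = 0.25 for each, the smallest p that 3 pairs allow, and 0.3 after Benjamini-Hochberg adjustment over 6 tests. No such test can pass 0.05 in this design. The difference from protein-coding ends turned to −0.0261 with a 500 bp window, −0.123 with a 2 kb distance from protein-coding ends and −0.486 when peaks under a −log10 q of 10 were dropped. The direction of this difference thus depended on the settings.

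**Figure D5:**
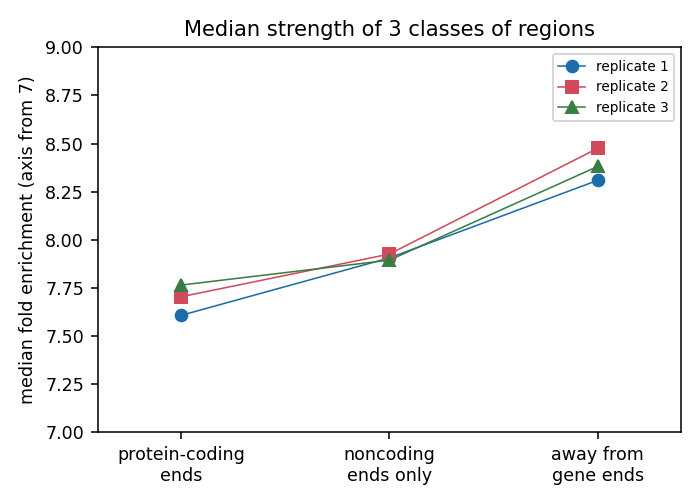
Median fold enrichment of the regions of each class in each replicate (symbols, joined by lines, axis from 7). The members lie between 7.89 and 7.93, protein-coding ends between 7.61 and 7.76 and regions away from gene ends between 8.31 and 8.48.

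The significance had a mean difference in median −log10 q of 0.417 ± 0.289 from protein-coding ends and −1.12 ± 0.194 from regions away from ends (SD, n = 3, exact permutation p = 0.25 for both, adjusted 0.3). The first of these turned to −0.224, −0.345 and −1.67 under the same 3 settings as the fold enrichment. Peaks of the members were narrower than those at protein-coding ends by 33, 10.5 and 6.5 bp in the 3 replicates, a mean of −16.7 ± 14.3 bp (SD, n = 3, exact permutation p = 0.25, adjusted 0.3). Against regions away from ends the mean width difference was −1.0 ± 5.68 bp (SD, n = 3, exact permutation p = 1). Of the members 19.7% were over 10-fold, against 22.7% at protein-coding ends and 27.8% away from ends. The share found in all 3 replicates was 45.2% at protein-coding ends (Wilson interval 41.2 to 49.2%) and 50.4% away from ends (49.1 to 51.6%), and the members' interval overlapped both.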

How the data were processed

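ChIP-seq peaks of FLAG-tagged GSX2 were analysed from 3 replicates of 1 group, named by the sample labels. Peaks were called replicate by replicate, since the authors deposited a separate narrow-peak list for each. Per the submitters' processing notes, the build was hg38, and MACS3, Bowtie2, SAMtools, deepTools and Trim Galore were among the tools. No source used here gives versions, settings or the role of the input in peak calling. The deposited fold enrichment is a ratio on a linear scale, relative to the background estimated by the peak caller, significance is −log10 of the p-value and of the q-value, and the integer score was not used. The lists hold no read counts, so depth and its precision are unknown.

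Lines of one interval were reduced to the summit of highest fold enrichment, which left 9859, 7471 and 9122 intervals of replicates 1, 2 and 3 on the numbered chromosomes and X, and 77, 64 and 82 on other contigs were set aside. Intervals sharing 1 bp were merged, and the position was the median summit. Genes, their types and their ends are from RefSeq (GRCh38.p14), and 182 of 188 list entries matched by symbol. Strand, available for 13155 of 39124 noncoding genes, is from RefSeq tables of gene starts and miRNAs. Start sequences are from the former, with 12830 noncoding windows. Each class of regions was compared over the 3 replicates by an exact sign-flip permutation test, and shares have 95% Wilson intervals.

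Genes named are those of the 12 strongest members of all 3 replicates, the 2 strongest of each gene type, every list gene with a member, those nearest to the 1 kb limits, and others said to be chosen after their values were seen. Beyond these, the tRNA, small RNA, antisense and start-site examples were also chosen after their values were seen. The members and lists were chosen with earlier results of these data known. Alternatives changed the windows, the overlap, the q-value limit, the position, the gene types and the replicates. The merging and classing were tested on simulated data. Python 3.11.15, pandas 2.3.3, NumPy 2.4.6 and SciPy 1.17.1 were used.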

Additional observations from a re-analysis of the deposited data

How the results depend on the processing

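The 356 members became 212 with a 500 bp window, 610 with a 2 kb window, 153 with −log10 q of at least 10, 167 with peaks of all 3 replicates required, and 215 to 254 without 1 replicate, the fewest without replicate 1. They numbered 306 to 364 under the other alternatives, including 2 added after seeing the data (tRNA regions or listed protein-coding starts left out). The 394 noncoding genes became 229, 655, 168 and 185 under the first 4 and 238 to 279 without 1 replicate. The 39 tRNA genes became 12 with the q-value limit, 18 with all 3 replicates, 22 to 29 without 1 replicate and 0 with tRNA regions left out. The share in all 3 replicates rose from 46.9% to 54.9% with the q-value limit. The median −log10 q against protein-coding ends turned to −0.224 with the 500 bp window, −0.345 with 2 kb from protein-coding ends and −1.67 with the q-value limit, and the fold enrichment to −0.0261, −0.123 and −0.486. The width against regions away from ends turned to 4.67 bp with the 2 kb window, 1.17 bp with 2 kb from protein-coding ends, 12.0 bp with the q-value limit, 0.667 bp at 50% overlap, 3.67 bp with all 3 replicates, 2.0 bp with midpoints, and −6 to 5.75 bp without 1 replicate. The cause was not tested. The fold enrichment and −log10 q against regions away from ends stayed lower under every alternative run. Of 35 named regions 24 remained members with the q-value limit, and 28, 28 and 31 without replicates 1, 2 and 3. No paired analysis was possible because the inputs, which share the replicate numbers, have no values here. Depth is unknown, so a missing peak is no evidence of absence.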

Other observations

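Several members lie near genes of developmental regulators. This set of neighbours was picked after the values were seen, and no test was made of it. The region of LOC124906301, inside MECOM, had 15.6, 17.0 and 15.0-fold enrichment in replicates 1, 2 and 3. LOC105375249, with its region 74.9 kb from the Hedgehog effector GLI3, had 17.9, 15.0 and 12.9. CLYBL-AS3 had its region 6.15 kb from ZIC5, a zinc finger gene of the dorsal neural tube. Near NR2F2, a regulator of the caudal forebrain, 4 members were found. At SCDAL, 2.02 kb from NR2F2, the values were 10.3, 10.7 and 9.64, and a second region of the same gene, 5.42 kb from NR2F2, had 6.39 and 7.09 in replicates 1 and 3. LOC105370998, 272 kb away, had 10.1, 11.7 and 8.54, and LOC124903582, 414 kb away, had 14.9, 14.8 and 10.1. Near EMX2, a regulator of dorsal telencephalon, LINC02674 had 9.01 and 11.2 in replicates 2 and 3 at 185 kb, and LOC107984274 had 2 regions.

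The 3 members of highest coefficient of variation among those of all 3 replicates each had 1 replicate apart from the rest. LOC124902939, inside the HOXC4 to HOXC6 locus, had 9.35, 8.86 and 23.9, a coefficient of variation of 60.8%. LOC105369757, 4.47 kb from WNT1, had 12.2, 6.30 and 4.73 (50.8%). LOC107986023, inside ATP2C1, had 8.64, 5.75 and 14.7 (47.2%).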
